A study of Mus musculus with 24 samples.

Results

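Integrins are the receptors with which cells hold on to the matrix around them, and laminins are adhesive proteins of basement membranes. The expression of 32 such genes was followed in mouse embryonic stem cells that lacked MLL1, MLL2 or both. They were taken by gene symbol from a deposited table of 19953 genes: 25 integrin subunits (17 alpha and 8 beta) and 7 laminin chains, leaving aside Lama1, Lamb1 and Lamc1. All 32 symbols were found. PolyA RNA had been sequenced in 24 libraries, 3 in each of 8 groups. At day 4 (D4) the groups were double-KO, Mll1-KO, Mll2-KO and wild type (WT), and at day 0 (D0) the same 4 genotypes. D4 cells had spent 4 days in 10% serum with 1 µM retinoic acid. D0 cells were undifferentiated stem cells in 15% serum with LIF, and cells grew on gelatin. The mutants were made from a stem cell line with a Cre-inducible deletion of Mll2. Mll1 was deleted in it by CRISPR, and 800 nM 4-hydroxytamoxifen (4-OHT) for 48 hours gave the Mll2-KO and double-KO cells. The labels give WT and Mll1-KO cells as untreated. In a comparison of a group without MLL2 and a group with it, the drug and the missing MLL2 therefore cannot be told apart. The labels do not say whether the 3 libraries of a group were separate cultures, so p-values measure only the spread between these libraries. Nor do they give the number of clones per genotype. In a comparison of a group without MLL1 and a group with it, a difference between clones and the missing MLL1 therefore cannot be told apart.

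An integrin pairs an alpha with a beta subunit, and the alpha subunit largely decides the ligand. Itgb1 is the common partner: with Itga3, Itga6 or Itga7 it binds laminins, with Itga1, Itga2, Itga10 or Itga11 collagens, and with Itga5 fibronectin. Itgav pairs with several beta subunits that bind vitronectin and fibronectin. A laminin joins an alpha, a beta and a gamma chain. Embryonic stem cells adhere to laminin through the Itga6 receptor, and Lama5 is the alpha chain of a laminin that supports their culture. MLL1 and MLL2 methylate lysine 4 of histone H3, and MLL2 is known for acting at CpG-rich promoters.

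Libraries held 10.7 to 17.1 M reads at D4 and 17.7 to 22.8 M reads at D0. Levels are given as normalized counts, which are reads divided by the size factor of the library. Changes are limma log2 fold changes on the scale of normalized count plus 1, with their standard error (SE) and a p adjusted over all genes tested. A gene was tested within a day if it reached 10 in at least 3 of the 12 libraries, and called at an adjusted p below 0.05. Itgae and Itgax did not reach that minimum at D4, and Itga2, Itga4, Itga11, Itgax, Itgb6, Itgb8, Lama2 and Lamc3 did not at D0. Kmt2a, the gene of MLL1, was at 88.4 to 132 in double-KO, 42.1 to 69.5 in Mll1-KO, 2292 to 2436 in Mll2-KO and 2029 to 2239 in WT libraries at D4. At D0 Kmt2a was at 20.6 to 37.0 in double-KO, 20.6 to 43.0 in Mll1-KO, 1299.6 to 1473 in Mll2-KO and 1047 to 1121 in WT libraries, so it was low in all libraries labelled as lacking MLL1. Kmt2b, the gene of MLL2, was at 2099 to 3701 over the 24 libraries, and a count over the whole gene checks nothing about the deleted exons. The summed level of 8 pluripotency markers was 1967 to 7948 over the D4 libraries and 116818 to 136976 over the D0 libraries. At D4 it was 3915 to 4096 in double-KO, 1967 to 2369 in Mll1-KO, 6817 to 7948 in Mll2-KO and 3877 to 5129 in WT. The part of this difference in the D4 changes was not tested.

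Promoters of the 3 genes with the largest log2 changes against WT in double-KO or Mll2-KO are shown first, because MLL2 is linked to CpG content. RefSeq start sites on GRCm38.p6 were matched for 22 of the 32 genes, and Itga6, Itga7, Itgae, Itgal, Itgb2, Itgb3, Itgb4, Lama3, Lama4 and Lamc3 had no entry. Each line gives the 250 bases before the start in the direction of transcription, with every CG in capitals. The windows are chr2:79255176-79255425 on the plus strand for Itga4, chr10:27616943-27617192 on the minus strand for Lama2 and chr1:193301744-193301993 on the plus strand for the first of 2 RefSeq starts of Lamb3.
Itga4: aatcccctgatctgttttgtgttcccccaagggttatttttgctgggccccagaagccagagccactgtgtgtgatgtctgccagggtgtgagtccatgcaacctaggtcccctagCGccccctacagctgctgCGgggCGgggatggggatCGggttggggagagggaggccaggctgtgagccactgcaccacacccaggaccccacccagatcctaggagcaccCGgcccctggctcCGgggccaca
Lama2: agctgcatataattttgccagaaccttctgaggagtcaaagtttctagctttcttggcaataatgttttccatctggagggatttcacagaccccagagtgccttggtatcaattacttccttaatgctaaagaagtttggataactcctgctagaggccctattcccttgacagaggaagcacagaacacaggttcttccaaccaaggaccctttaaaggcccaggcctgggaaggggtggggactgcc
Lamb3: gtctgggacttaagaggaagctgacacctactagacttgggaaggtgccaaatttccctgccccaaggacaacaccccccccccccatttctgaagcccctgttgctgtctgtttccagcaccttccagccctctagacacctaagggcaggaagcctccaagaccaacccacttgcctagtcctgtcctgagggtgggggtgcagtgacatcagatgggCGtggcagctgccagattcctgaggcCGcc
The Itga4 window held 6 CG, which was the median of all 32851 promoters in the table, and 49.6% of them held fewer. The Lama2 window held 0, as did 7.87% of all promoters. The Lamb3 window held 2, and 18.8% of all promoters held fewer. The window of the other RefSeq start of Lamb3 held 3, and 29.0% held fewer. GENCODE places the 5' end of Lama2 further upstream, at 27619758, and that of Lamb3 far upstream, at 193207699. The RefSeq windows are therefore not the only annotated starts of these genes. Among the other genes, the windows of Itgb1, Itga3 and Lama5 held 21, 22 and 19 CG, with 5 at another start of Itga3. Those of Itga8, Itga2 and Itga1, which fell at D4 in double-KO and Mll2-KO, held 18, 12 and 10. The window of Lamb2, which rose in both, held 3. Itgb1, with 21, was also called higher in both, though its call in Mll2-KO depended on the scaling. The window of Itgb5, which was higher in Mll2-KO and lower in double-KO, held 18. These are counts of letters in a window and say nothing of what binds there.

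The first comparison was that of D4 WT with D0 WT, the change over differentiation. Itgb1, Itga3, Itgav and Lamb2 rose severalfold. Itga2, Itga4, Itgb6, Itgb8 and Lama2, which were near absent at D0, rose to clearly measured levels. Subunits known from leukocytes fell, among them Itgb7, Itgal and Itgae, and so did the epithelial chain Lama3. Of 31 genes tested, 24 were called, 19 higher and 5 lower, where 82.9% of all 15114 genes were called, 43% higher and 39.9% lower. The share called was not above this background. The median log2 fold change of the genes was 0.78, against 0.04 for all genes tested. Itga2, Itga4, Itga11, Itgb6, Itgb8, Lama2 and Lamc3, all called higher, reached the minimum for testing only through D4 libraries. Itgae, called lower, reached it only through D0 libraries. A called change of these genes could hardly go the other way, so the split and the median give no support for a direction.

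Itgb1 had 16483, 15126 and 14916 in D4 WT libraries, against 3436, 3422 and 3538 in D0 WT libraries (2.16, SE 0.05, 4.47-fold higher, adjusted p = 1.4e-23). Its partner Itga3 had 6314, 6449.6 and 6534 in D4 WT, against 1982, 1817 and 1889 in D0 WT (1.76, SE 0.04, 3.39-fold higher). Itgav had 2676, 2164 and 2236 in D4 WT, against 770.3, 769 and 763 in D0 WT (1.61, SE 0.08, 3.06-fold higher). In all 3 genes every D4 library stood above every D0 library. Itga5, the fibronectin receptor chain, had 3348, 3110.5 and 3281 in D4 WT, against 1760.3, 1738 and 1685 in D0 WT (0.91, SE 0.04, 1.88-fold higher). Itga6, the laminin receptor chain, had 5246, 5126 and 4827 in D4 WT, against 3610.2, 3604 and 3609.6 in D0 WT (0.49, SE 0.04, 1.40-fold higher). These chains of the stem cell receptors also had no overlap between days. Lamb2, a laminin beta chain of the neuromuscular junction and the kidney filter, had 1926, 1789 and 1953 in D4 WT, against 593, 624 and 576 in D0 WT, again apart (1.66, SE 0.05, 3.16-fold higher).

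Several genes rose from a low D0 level. Itga8, the receptor chain for nephronectin, had 295, 282 and 245 in D4 WT, against 24.5, 34.9 and 33.4 in D0 WT (3.12, SE 0.19, 8.67-fold higher). Itgb3, a vitronectin receptor chain, had 321, 329.8 and 349 in D4 WT, against 90.4, 115 and 125 in D0 WT (1.60, SE 0.17, 3.04-fold higher). Lama4, a laminin chain of vessels and connective tissue, had 87.4, 60.1 and 63.6 in D4 WT, against 17.6, 14.4 and 13.2 in D0 WT (2.14, SE 0.38, 4.41-fold higher). The days were apart in all 3 genes. Itgb6, which with Itgav activates TGF-beta, had 61.0, 72.2 and 49.5 in D4 WT, against 2.30, 0 and 1.55 in D0 WT (4.91, SE 0.42, 30.1-fold higher). Itga2, a collagen receptor chain, was at 41.7 to 52.1 in D4 WT and at 0 in each D0 WT library, at least 59.9-fold higher against a floor of 3 counts over the group. Itgb8, another partner of Itgav, held 3 reads in all of D0 WT, and its ratio of D4 WT to D0 WT was 35.0 with a 95% counting interval of 11.5 to 173. Such intervals and floors cover counting error only.

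The falls were in leukocyte subunits and a laminin chain. Itgb7 had 7.11, 15.0 and 18.9 in D4 WT, against 330.0, 329 and 268 in D0 WT (-4.49, SE 0.24, 22.5-fold lower). Itgal had 8.13, 10.0 and 11.8 in D4 WT, against 78.1, 58.5 and 75.3 in D0 WT (-2.71, SE 0.39, 6.54-fold lower). Lama3, an alpha chain of epithelial anchoring laminin, had 20.3, 25.1 and 23.6 in D4 WT, against 144, 121 and 122 in D0 WT (-2.44, SE 0.18, 5.42-fold lower). No D4 library reached a D0 library in these 3 genes. The leukocyte markers Ptprc and Tyrobp were at 0 in WT libraries of both days, and the sum of 8 leukocyte markers was 405 to 464 in D4 WT and 2349 to 2589.6 in D0 WT. Itga1, Itga2b, Itga7, Itga10, Itgb2, Itgb4 and Lamb3 did not pass the test between days. With quantile scaling 19 genes were higher and 11 lower, where over all genes 5852 were higher and 6800 lower. The median of all genes moved to -0.11 with quantile scaling and to 0.17 with scaling to column totals.

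**Figure D1:**
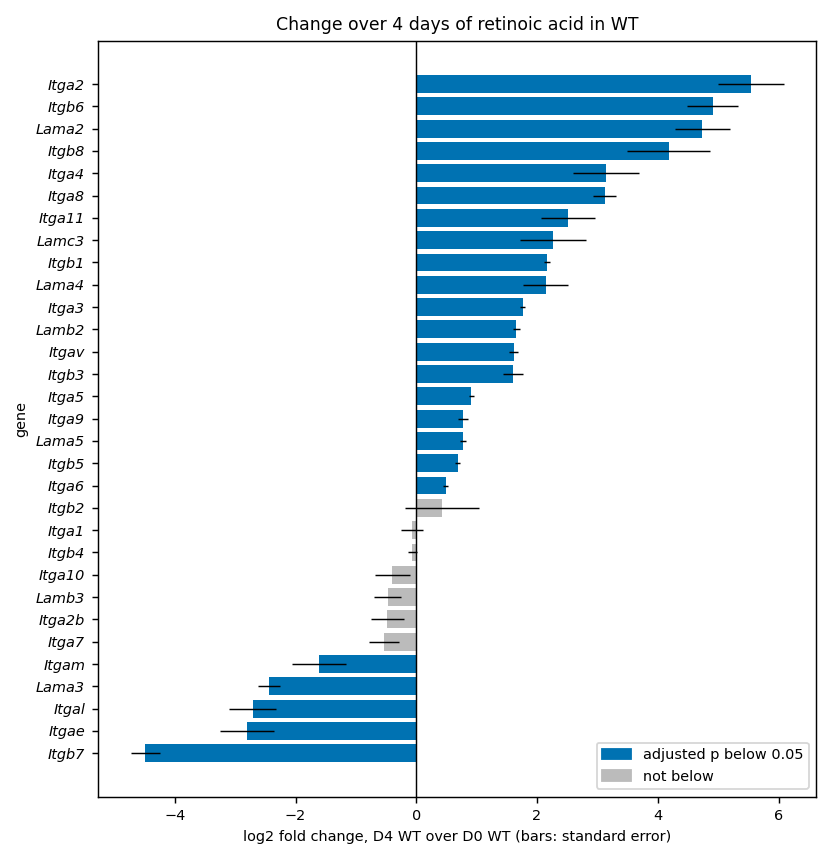
Each bar is the log2 fold change of a gene in D4 WT over D0 WT libraries (n = 3 each), with its standard error as a line, and blue marks an adjusted p below 0.05. Itga2 is at the top, but its D0 WT libraries hold 0 reads and its bar depends on the pseudocount, and Itgb7 is at the bottom with -4.49.

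Divided by merged exon length, levels could be roughly compared between genes. The merged length counts the exons of all annotated isoforms, and which of these were expressed was not examined. The order of genes and their shares depend on this choice. In D4 WT, Itgb1 stood at 3800.1 ± 208 normalized counts per kb (SD, n = 3), Itga3 at 1127 ± 19.4, Lama5 at 682 ± 33.6, Itga5 at 658 ± 24.9, Itga6 at 561 ± 23.9 and Itgb5 at 464 ± 19.2. Lama5 and Itga5 overlapped between libraries, and the other neighbours in this order did not. In D0 WT the levels per kb were 849 ± 15.5 for Itgb1, 399.8 ± 0.35 for Itga6, 399.5 ± 23.6 for Lama5, 350.3 ± 7.83 for Itga5, 332 ± 14.5 for Itga3 and 289 ± 15.4 for Itgb5. Here Itga6 overlapped Lama5, and Itga5 overlapped Itga3. Itga3 took 41.1 ± 1.35% of the summed alpha level per kb in D4 WT and 26.3 ± 0.67% in D0 WT, and Itga6 took 20.5 ± 0.67% in D4 WT and 31.6 ± 0.58% in D0 WT. Among the beta subunits Itgb1 made up 86.4 ± 0.996% in D4 WT and 63.8 ± 0.98% in D0 WT.

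**Figure D2:**
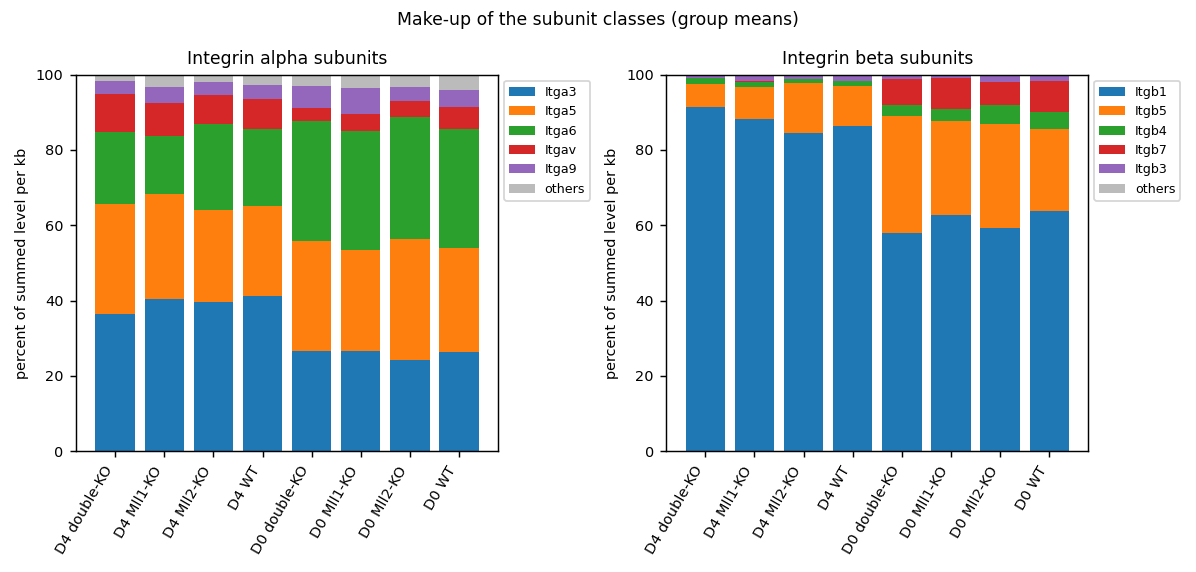
Stacked bars give the mean percent (n = 3 libraries) that each subunit takes of the summed normalized counts per kb of its class, alpha on the left and beta on the right, for the 8 groups. Itga3 is the widest alpha segment in D4 WT and Itga6 in D0 WT, and Itgb1 takes 91.4 ± 0.27% of the beta sum in D4 double-KO, against 86.4 ± 0.996% in D4 WT.

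At D4, Mll2-KO was compared with WT to see what differed without MLL2, and Itga4 and Lama2 fell furthest. Itga4 encodes the chain with which Itgb1 or Itgb7 binds VCAM1 and fibronectin. Lama2 encodes the laminin alpha chain of muscle and Schwann cell basement membrane, and its loss in people causes a congenital muscular dystrophy. Both were near absent at D4 in cells without MLL2. Of 30 genes tested in Mll2-KO against WT at D4, 13 were called, 6 higher and 7 lower, where 45.7% of all genes were called, 25.4% higher and 20.3% lower. With scaling to column totals the split was 3 higher and 11 lower, where over all genes 2047 were higher and 3898 lower.

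Itga4 (chromosome 2, 79255426 to 79333123, plus strand, GRCm38) had 0, 1.53 and 0 in double-KO, 84.4, 86.1 and 79.9 in Mll1-KO, 0.98, 2.04 and 0 in Mll2-KO, and 78.2, 71.2 and 44.8 in WT libraries at D4. Every library without MLL2 was at 2.04 or below and every library with it at 44.8 or above. The Mll2-KO libraries held 3 Itga4 reads in all, against 186 in WT, a ratio of WT to Mll2-KO of 63.9 with a 95% counting interval of 21.5 to 313. The double-KO libraries held 1 read, and the ratio of WT to double-KO was 159 with an interval of 28.2 to 6321. The fitted change was -5.55, SE 0.46 in double-KO (adjusted p = 2.3e-10) and -5.14, SE 0.46 in Mll2-KO (adjusted p = 1.4e-09), and with a pseudocount of 5 in place of 1 it was -3.64 in double-KO and -3.52 in Mll2-KO. The Mll1-KO libraries stood above WT without overlap, which did not pass the test (0.40, SE 0.46, adjusted p = 0.53). At D0 Itga4 was at 1.03 to 12.7 over the 12 libraries, with the genotypes overlapping. Itga4 shares 1124 exon bases with Cerkl on the opposite strand, which was at 0 to 3.53 in the D4 libraries.

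Lama2 (chromosome 10, 26980036 to 27619758, minus strand) had 7.83, 12.3 and 6.84 in double-KO, 122, 128 and 139 in Mll1-KO, 1.96, 6.11 and 4.36 in Mll2-KO, and 89.4, 89.2 and 82.5 in WT libraries at D4. The libraries without MLL2 reached at most 12.3 and the others at least 82.5. The change was -3.18, SE 0.29 in double-KO (9.05-fold lower, adjusted p = 1.6e-09) and -4.19, SE 0.29 in Mll2-KO (18.2-fold lower, adjusted p = 1.9e-11). Double-KO libraries stood above Mll2-KO libraries with no overlap (1.01, SE 0.29, adjusted p = 0.0074). That call was lost with edgeR (adjusted p = 0.074), with DESeq2 (adjusted p = 0.11), with all 24 libraries in the limma fit (adjusted p = 0.093) and without Mll2-KO replicate 1 or double-KO replicate 2, and its value was 0.62 with a pseudocount of 5. Mll1-KO libraries stood above WT libraries with no overlap, and this did not pass the test (0.57, SE 0.29, adjusted p = 0.13). At D0 Lama2 was at 0 to 5.14 over the 12 libraries.

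**Figure D3:**
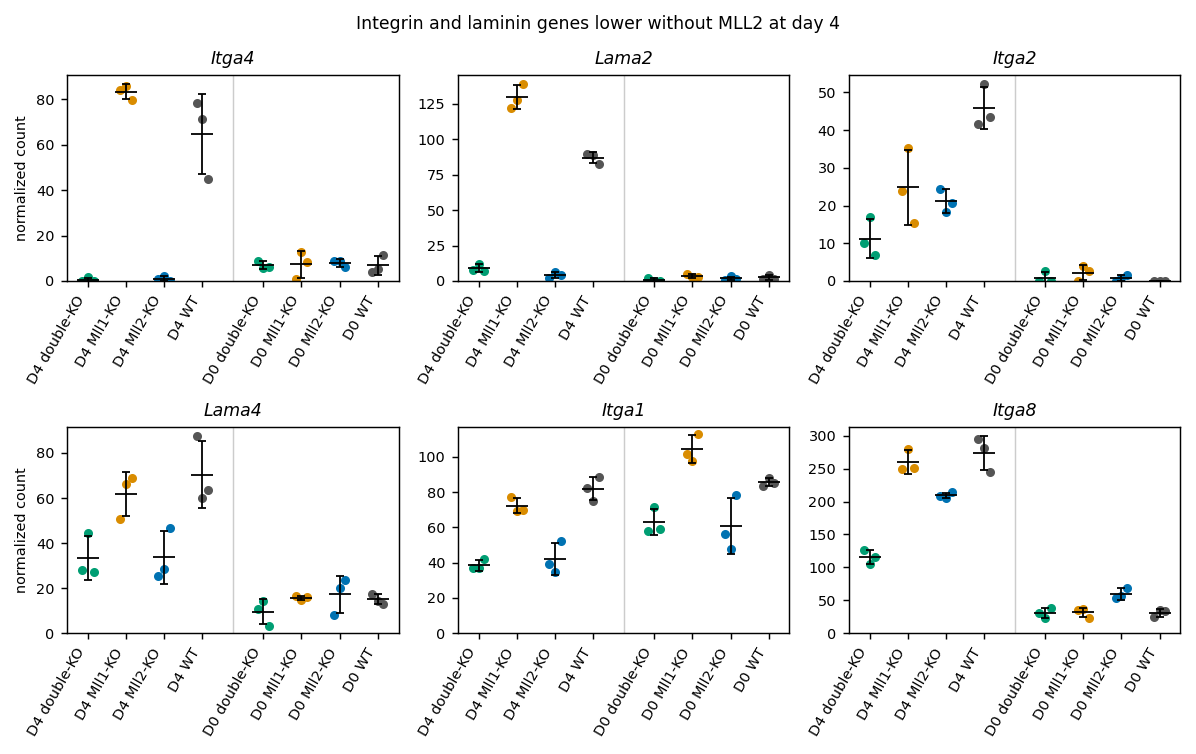
Normalized counts of 6 genes, each point a library, with the mean and SD of each group (n = 3), D4 groups on the left and D0 groups on the right. At D4 Itga4 and Lama2 lie near 0 in double-KO and Mll2-KO and at 44.8 or above in Mll1-KO and WT, and the other 4 genes are lowered less.

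Other receptor chains and a laminin chain fell less far. Lama4 (chromosome 10, 38965515 to 39110188) had 28.0, 44.5 and 27.4 in double-KO and 25.5, 28.5 and 46.9 in Mll2-KO, against 87.4, 60.1 and 63.6 in WT at D4. The change was -1.07, SE 0.24 in double-KO (adjusted p = 0.0006) and -1.07, SE 0.24 in Mll2-KO (adjusted p = 0.00073). Its highest library without MLL2 was at 46.9 and its lowest WT library at 60.1. Itga1 (chromosome 13, 114953096 to 115101964), a collagen receptor chain, had 36.9, 36.8 and 42.2 in double-KO and 39.2, 34.6 and 52.4 in Mll2-KO, against 82.3, 75.2 and 88.4 in WT at D4. These groups did not overlap, and the change was -1.06, SE 0.18 in double-KO (adjusted p = 2.5e-05) and -0.96, SE 0.18 in Mll2-KO (adjusted p = 0.00011). Pelo overlaps the Itga1 locus on the same strand with 0 shared exon bases. It was at 317 to 355 in double-KO, 250 to 271 in Mll2-KO and 302 to 317 in WT at D4. Itga8 (chromosome 2, 12106632 to 12301922) had 126, 106 and 116 in double-KO, 249, 280.3 and 251 in Mll1-KO, 209, 205 and 214 in Mll2-KO, and 295, 282 and 245 in WT at D4. Double-KO was lowest (-1.23, SE 0.10, 2.34-fold lower, adjusted p = 2.2e-10), and Mll2-KO lay between it and WT (-0.38, SE 0.10, adjusted p = 0.003). The Mll2-KO call was lost with all 24 libraries in the fit (adjusted p = 0.12). Itga8 shares 372 exon bases with E030013I19Rik on the opposite strand, which was at 0 to 3.42 in all libraries.

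Itga2 and Itgb3 also fell. Itga2 averaged 11.3 ± 5.11 in double-KO, 24.9 ± 9.98 in Mll1-KO, 21.2 ± 3.10 in Mll2-KO and 45.8 ± 5.57 in WT at D4 (SD, n = 3 each), and it fell in double-KO (-2.01, SE 0.32), Mll1-KO (-0.92, SE 0.32) and Mll2-KO (-1.08, SE 0.32). With all 24 libraries in the fit the Itga2 call was lost in Mll1-KO (adjusted p = 0.23) and Mll2-KO (adjusted p = 0.12). The Mll1-KO call was also lost without the filter and without Mll1-KO replicate 1 or 3 or WT replicate 2 or 3, and the Mll2-KO call with quantile scaling. Itgb3 (chromosome 11, 104608000 to 104670476) had 218, 216 and 202 in double-KO and 229, 203 and 197 in Mll2-KO, against 321, 329.8 and 349 in WT at D4. The groups were apart (-0.65, SE 0.08 in double-KO and -0.67, SE 0.08 in Mll2-KO). Mll1-KO had 378, 399 and 374, all above WT, which did not pass the test (0.20, SE 0.08, adjusted p = 0.06).

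Markers of cell types that can carry these genes were summed beside them. The sum of 6 muscle markers was 28986 to 34259 in double-KO, 15042 to 19369 in Mll2-KO and 12086 to 14382 in WT at D4, with Myog at 0 in Mll2-KO and WT, and of 4 muscle markers tested 4 rose in double-KO and 3 in Mll2-KO. The sum of 5 neural crest markers was 1473 to 1633 in double-KO, 1071 to 1243 in Mll2-KO and 1008 to 1102 in WT, where 1 of 4 tested rose in double-KO and 0 in Mll2-KO. The sum of 4 mesothelium markers was 5090.1 to 5333 in double-KO, 3738 to 3834 in Mll2-KO and 5986 to 6158 in WT, where 2 of 4 fell and 1 rose in double-KO and 3 fell in Mll2-KO. The part of such cells in the falls was not tested. In bulk samples fewer cells of a type and less RNA per cell cannot be told apart.

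In double-KO against WT at D4, 22 of 30 genes were called, 11 higher and 11 lower, where 50.9% of all genes were called, 27.6% higher and 23.3% lower. This comparison uses the same WT libraries as that of Mll2-KO. Itgb1 led the rises in level, and the epithelial laminin chains Lamb3 and Lama3 led them in size. Itgb1 (chromosome 8, 128685654 to 128733200) had 24555, 25516 and 25443 in double-KO, 16042, 15370.0 and 15838 in Mll1-KO, 17740.0, 16138 and 18832 in Mll2-KO, and 16483, 15126 and 14916 in WT at D4. The 3 double-KO libraries stood above all other D4 libraries (0.70, SE 0.05, 1.62-fold higher, adjusted p = 6.5e-12). Mll2-KO overlapped WT (0.18, SE 0.05, adjusted p = 0.0034), and that call was lost with quantile scaling (adjusted p = 0.94) and column totals (adjusted p = 0.13). The sum of 9 fibroblast markers was 15294 to 16083 in double-KO and 6639 to 7262 in WT at D4, with Fap at 0 in both, and of 8 such markers tested 5 rose and 2 fell in double-KO. Their part in the rise of Itgb1 was not tested. The beta subunits summed to 6749 ± 128 normalized counts per kb in double-KO and 4397 ± 191 in WT at D4, and the alpha subunits to 2521 ± 35.5 in double-KO and 2742 ± 44.8 in WT (SD, n = 3 each).

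Lamb3 (chromosome 1, 193207699 to 193343878), the beta chain of epithelial anchoring laminin, had 124, 101 and 100.4 in double-KO, 46.4, 40.8 and 44.9 in Mll1-KO, 31.4, 26.5 and 32.7 in Mll2-KO, and 25.4, 27.1 and 22.4 in WT at D4. Double-KO stood above all other groups (2.08, SE 0.19, 4.21-fold higher than WT, adjusted p = 2.0e-09). Mll1-KO stood above WT (0.80, SE 0.19, adjusted p = 0.002), and Mll2-KO overlapped WT and did not pass (0.26, SE 0.19). Its partner chain Lama3 (chromosome 18) had 71.6, 69.0 and 86.7 in double-KO and 39.2, 54.0 and 36.0 in Mll2-KO, against 20.3, 25.1 and 23.6 in WT at D4. These groups did not overlap (1.68, SE 0.22, 3.20-fold higher in double-KO and 0.86, SE 0.22, 1.82-fold higher in Mll2-KO). Itgb4 (chromosome 11, 115974709 to 116008412), the hemidesmosome chain that pairs with Itga6, had 768, 747 and 729 in double-KO and 445, 459.6 and 452 in Mll2-KO, against 403, 418 and 383 in WT. It was far apart in double-KO (0.90, SE 0.07, 1.86-fold higher, adjusted p = 5.1e-11) and by less in Mll2-KO (0.17, SE 0.07, adjusted p = 0.042), where the call was lost with either other scaling, a replicate block (adjusted p = 0.055), all 24 libraries in the fit, edgeR and DESeq2, and without any Mll2-KO library or WT replicate 1 or 3. Itgb4 shares 537 exon bases with B230344G16Rik on the opposite strand, which was at 0 to 3.07 in all libraries. The sum of 6 stratified epithelium markers was 274 to 316 in double-KO, 232 to 239 in Mll2-KO and 79.2 to 103 in WT at D4, with none at 0. Of 3 such markers tested 2 rose in double-KO, and in Mll2-KO 2 rose and 1 fell. The sum of 6 simple epithelium markers went the other way at D4. It was 45924 to 49351 in double-KO and 39717 to 43565 in Mll2-KO, against 51887 to 53992 in WT. The part of either list in the rise of these genes was not tested.

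Itgb5, which with Itgav binds vitronectin, was lower than WT in double-KO and Mll1-KO and higher in Mll2-KO. It had 1472, 1515 and 1440.5 in double-KO, 1318, 1363 and 1309.6 in Mll1-KO, 2418, 2379.6 and 2356 in Mll2-KO, and 1579, 1715 and 1656 in WT at D4. No mutant group overlapped WT (-0.16, SE 0.04 in double-KO, -0.31, SE 0.04 in Mll1-KO and 0.53, SE 0.04, 1.45-fold higher in Mll2-KO). Lamb2 had 2747, 2559 and 2551 in double-KO, 2446, 2348 and 2426 in Mll1-KO, 2161, 2571 and 2232 in Mll2-KO, and 1926, 1789 and 1953 in WT, and rose in double-KO (0.47, SE 0.05), Mll1-KO (0.35, SE 0.05) and Mll2-KO (0.29, SE 0.05). Lama5 had 9697, 9589 and 9497 in double-KO and 9948, 10203 and 10288 in Mll1-KO, against 7897, 7342 and 8076 in WT, with no overlap (0.31, SE 0.04 in double-KO and 0.39, SE 0.04 in Mll1-KO), and did not pass in Mll2-KO (-0.07, SE 0.04). The other rises in double-KO were those of Itga5 (0.17), Itgav (0.22), Itga11 (0.63), Itgb2 (1.42) and Lamc3 (0.85), and the other falls those of Itga3 (-0.30), Itga6 (-0.22) and Itga9 (-0.32). The Itgav call was lost with DESeq2, with either other scaling, and without double-KO replicate 3 or WT replicate 2, and the Itga5 change was 0.10 with quantile scaling. The calls for Itga11 and Lamc3 were lost without the filter, with column totals, all 24 libraries in the fit or DESeq2, and on leaving out any 1 of several libraries (Itga11 double-KO replicate 1 or 3 or any WT, Lamc3 double-KO replicate 1 or 2 or WT replicate 2 or 3), while their values were 1.00 and 1.29 with quantile scaling. The Lamc3 call was also lost with a pseudocount of 0.5 and with edgeR, and the Itgb2 call with all 24 libraries in the fit. In Mll2-KO Itga6 was the remaining rise (0.15), lost with either other scaling.

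**Figure D4:**
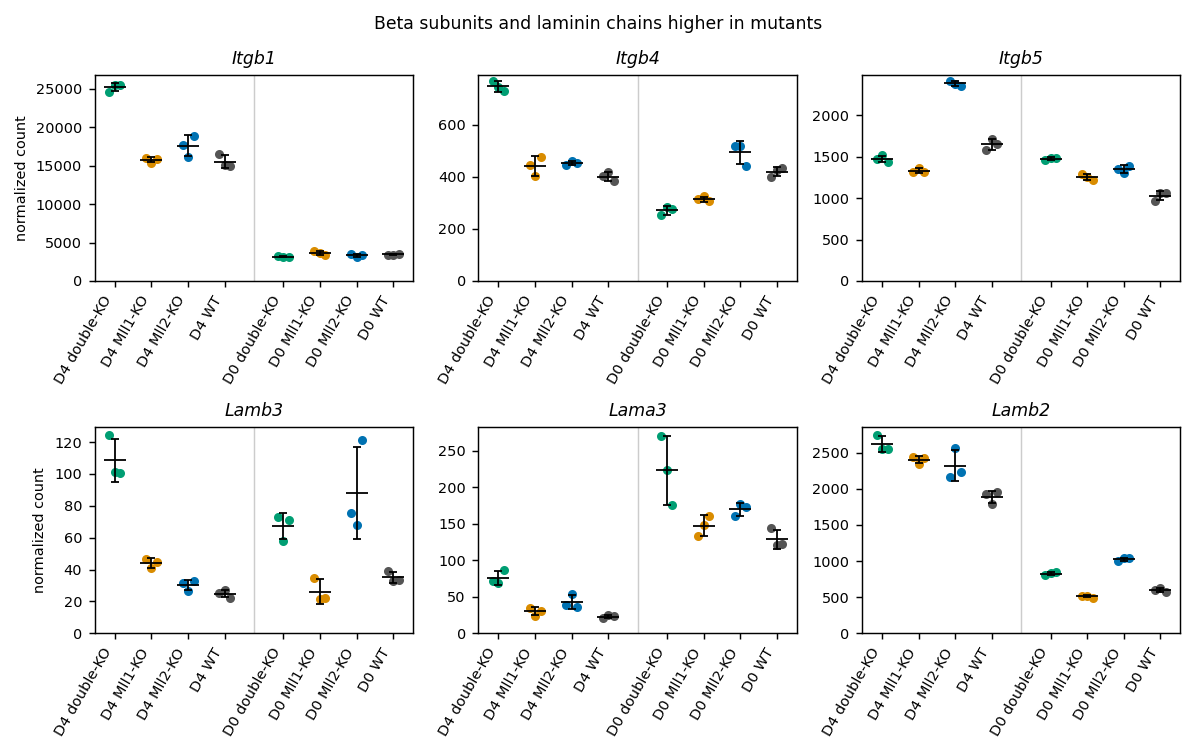
Normalized counts of 6 genes, each point a library, with the mean and SD of each group (n = 3), D4 groups on the left and D0 groups on the right. In D4 double-KO the points of Itgb1, Itgb4, Lamb3 and Lama3 stand above those of all other D4 groups, and Itgb5 is highest in D4 Mll2-KO.

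In Mll1-KO against WT at D4, 9 of 30 genes were called, 4 higher and 5 lower, where 35.8% of all genes were called, 16.5% higher and 19.2% lower. With scaling to column totals 6 were higher and 5 lower, where over all genes 3137 were higher and 2062 lower. The laminin receptor chains Itga6 and Itga7 moved in opposite directions. Itga6 (chromosome 2, 71745616 to 71858416) had 3440.2, 3363 and 3158 in Mll1-KO, against 5246, 5126 and 4827 in WT, with no overlap (-0.61, SE 0.04, 1.53-fold lower, adjusted p = 2.1e-11). Itga7 (chromosome 10, 128933818 to 128958282), the laminin receptor chain of muscle, had 59.1, 65.1 and 72.9 in Mll1-KO, against 33.5, 27.1 and 35.3 in WT, again apart (1.02, SE 0.24, 2.03-fold higher, adjusted p = 0.0013). Itgb6 (chromosome 2, 60598292 to 60722643) had 23.9, 35.3 and 28.0 in Mll1-KO, against 61.0, 72.2 and 49.5 in WT (-1.04, SE 0.20, 2.06-fold lower, adjusted p = 0.00016). The Itgb6 groups did not overlap, and the call was lost with all 24 libraries in the fit (adjusted p = 0.068). Itga3 was the other fall not yet named (-0.21, and -0.13 with quantile scaling). The sum of 10 extraembryonic endoderm markers was 11726 to 12752 in Mll1-KO and 26743 to 27381 in WT at D4. In Mll1-KO 10 of 10 fell. The sum was 18687 to 19729 in D4 double-KO and 34951 to 36551 in D4 Mll2-KO, and its part was not tested.

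Set against the single mutants, D4 double-KO differed from D4 Mll1-KO in 20 of 30 genes, 10 higher and 10 lower, where 54.8% of all genes were called, 31.1% higher and 23.7% lower. It differed from D4 Mll2-KO in 15, 9 higher and 6 lower, where 40.3% of all genes were called, 19.4% higher and 20.9% lower, and both of these groups had received 4-OHT. Against Mll2-KO, the double-KO cells had 3.51-fold higher Lamb3 (1.81, SE 0.19), 1.65-fold higher Itgb4 (0.72, SE 0.07) and 1.44-fold higher Itgb1 (0.52, SE 0.05). Itgb5 was 1.62-fold lower (-0.69, SE 0.04) and Itga8 1.80-fold lower (-0.85, SE 0.10). Itga4 did not pass the test between them (-0.42, SE 0.46, adjusted p = 0.50).

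Whether the effect of losing MLL2 differed with and without MLL1 was tested as a difference of differences, (double-KO minus Mll1-KO) minus (Mll2-KO minus WT), in which the drug enters both terms. At D4, 9 of 30 genes passed, 6 higher and 3 lower, where 13.6% of all genes did, 7.59% higher and 6.05% lower. Itgb1 was at 0.50, SE 0.07 (adjusted p = 1.9e-05), Itgb4 at 0.59, SE 0.10, Lamb3 at 1.01, SE 0.27, Itga6 at 0.24, SE 0.06, Itgb5 at -0.38, SE 0.06, Itga8 at -0.77, SE 0.14 and Itga9 at -0.27, SE 0.09. The calls for Itgav (0.31) and Itgb6 (0.87) were lost under several alternatives, and that for Itga9 with a replicate block (adjusted p = 0.054), without the filter, with all 24 libraries in the fit, edgeR or DESeq2, and on leaving out any 1 of 8 libraries. With all 24 libraries in the fit 4 genes passed, and Itga8 (adjusted p = 0.079) and Lamb3 (adjusted p = 0.051) were among those lost. The share of all genes that passed in that fit is not given here, so this drop cannot be set against it. Itga4 (-0.82, SE 0.65) and Lama2 (0.44, SE 0.41) did not pass. At D0, 3 of 24 genes passed, all lower, where 9.13% of all genes did, 4.42% higher and 4.71% lower. These were Itga5 (-0.27, SE 0.07), Itga6 (-0.21, SE 0.06) and Itgb4 (-0.44, SE 0.12). That count was 1 without Mll2-KO replicate 1 or 2 or without WT replicate 1 or 2.

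At D0 most called changes were under 1 on the log2 scale. In double-KO against WT, 14 of 24 genes were called, 7 higher and 7 lower, where 53.7% of all genes were called, 26.6% higher and 27.1% lower. With quantile scaling 9 were called, 6 higher and 3 lower, where over all genes 3932 were higher and 3545 lower. In Mll1-KO 8 were called, 3 higher and 5 lower, where 40% of all genes were, 21.3% higher and 18.7% lower. In Mll2-KO 13 were called, 10 higher and 3 lower, where 47.2% of all genes were, 22.8% higher and 24.3% lower, and 8 were called without WT replicate 2. Double-KO differed from Mll1-KO in 10, 5 higher and 5 lower, where 41% of all genes were called, 18.9% higher and 22% lower. It differed from Mll2-KO in 10, 2 higher and 8 lower, where 47.7% were, 23.4% higher and 24.3% lower. With column totals 1 was higher and 10 lower, where over all genes 2568 were higher and 4172 lower.

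Among the laminin chains at D0, Lamb3 and Lamb2 rose without MLL2. Lamb3 had 73.0, 58.1 and 71.4 in double-KO, 35.0, 21.5 and 21.9 in Mll1-KO, 75.2, 67.7 and 121 in Mll2-KO, and 39.0, 32.7 and 33.4 in WT at D0. The libraries without MLL2 were all above those with it (0.92, SE 0.24 in double-KO and 1.26, SE 0.24, 2.40-fold higher, adjusted p = 0.00027 in Mll2-KO). G0s2 lies within the Lamb3 locus on the opposite strand with 0 shared exon bases, and it was at 97.1 to 117 in double-KO, 82.3 to 114 in Mll2-KO and 16.1 to 31.9 in WT at D0. Lamb2 had 801, 828 and 843 in double-KO, 521, 522 and 494 in Mll1-KO, 1002, 1036 and 1039 in Mll2-KO, and 593, 624 and 576 in WT. All 4 groups were apart (0.46, SE 0.06 in double-KO, -0.22, SE 0.06 in Mll1-KO and 0.78, SE 0.06, 1.71-fold higher, adjusted p = 3.5e-09 in Mll2-KO). Lama3 rose in double-KO (0.77, SE 0.14) and Mll2-KO (0.40, SE 0.14), and the Mll2-KO call was lost with all 24 libraries in the fit and without Mll2-KO replicate 2, WT replicate 2 or WT replicate 3. The sum of the stratified epithelium markers at D0 was 12.8 to 25.3 in double-KO, 26.6 to 44.8 in Mll2-KO and 58.2 to 78.2 in WT, lower in the groups without MLL2, with Trp63 and Dsg3 at 0 in WT. Most of it was Col17a1, which averaged 13.1 ± 5.84 in double-KO, 29.7 ± 10.1 in Mll2-KO and 61.3 ± 10.2 in WT at D0. Col17a1 averaged 12.8 ± 4.08 in D4 WT, so the sums of the 2 days rest on different genes.

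The receptor chains of stem cells changed by small steps at D0. Itga5 had 1889.7, 1915 and 1850.0 in double-KO, 1756, 1597 and 1625 in Mll1-KO, 2327, 2343 and 2449.5 in Mll2-KO, and 1760.3, 1738 and 1685 in WT, and Mll2-KO stood above the rest (0.46, SE 0.05, 1.37-fold higher, adjusted p = 3.1e-07). Itga6 had 3836, 3665 and 3695 in double-KO, 3625, 3525 and 3488 in Mll1-KO, 4542, 4439 and 4172 in Mll2-KO, and 3610.2, 3604 and 3609.6 in WT, with Mll2-KO again above the rest (0.28, SE 0.04, adjusted p = 2.8e-05). Itgav had 437, 525 and 543 in double-KO and 642, 555 and 644 in Mll1-KO, against 770.3, 769 and 763 in WT. These groups lay below WT (-0.62, SE 0.08 in double-KO and -0.33, SE 0.08 in Mll1-KO). Itgb1 had 3272, 3128 and 3089.6 in double-KO, against 3436, 3422 and 3538 in WT (-0.13, SE 0.05, adjusted p = 0.039), a call lost without the filter and without any single WT library or double-KO replicate 2 or 3, and the value was -0.21 with quantile scaling. Itgb5 rose in double-KO (0.52, SE 0.05), Mll1-KO (0.29, SE 0.05) and Mll2-KO (0.40, SE 0.05). Itgb4 fell in double-KO (-0.63, SE 0.09) and Mll1-KO (-0.42, SE 0.09) and rose in Mll2-KO (0.23, SE 0.09), where the call was lost with quantile scaling and without Mll2-KO replicate 1 or 2 or WT replicate 1 or 2.

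Subunits known from blood cells were measured at D0, of which Itgb7 was well above Itgal and Itgae. Itgal had 57.2, 53.9 and 22.4 in double-KO, 86.4, 77.1 and 77.6 in Mll1-KO, 30.4, 39.5 and 22.1 in Mll2-KO, and 78.1, 58.5 and 75.3 in WT. Mll2-KO lay below WT with no overlap (-1.20, SE 0.29, 2.30-fold lower, adjusted p = 0.0017). The double-KO call (-0.76, SE 0.29, adjusted p = 0.031) was lost with quantile scaling, without the filter, with all 24 libraries in the fit, and without double-KO replicate 3 or WT replicate 1 or 3. Itgb7 fell in double-KO (-0.28, SE 0.11) and Mll2-KO (-0.37, SE 0.11), and both calls were lost with all 24 libraries in the fit. Itgae fell in double-KO (-1.23, SE 0.37), a call lost with quantile scaling and without double-KO replicate 1, and Itga2b, the chain of the platelet fibrinogen receptor, fell in Mll1-KO (-1.31, SE 0.30, 2.48-fold lower). The sum of leukocyte markers was 3436 to 3702 in double-KO and 4064 to 4879 in Mll2-KO, against 2349 to 2589.6 in WT at D0, where 3 of 4 tested rose in each, with Tyrobp at 0 in all these groups. Its part was not tested.

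The remaining calls at D0 were few. Itga8 (0.94) and Itga3 (0.14) rose in Mll2-KO, Itga5 in double-KO (0.13), Itga9 in double-KO (0.38) and Mll1-KO (0.53), and Lama5 in double-KO (0.26), Mll1-KO (0.25) and Mll2-KO (0.19). Itga1 fell in double-KO (-0.44) and Mll2-KO (-0.52), and Itgb3 fell in Mll1-KO (-0.67). Pelo, which overlaps the Itga1 locus on the same strand, was at 380 to 449 in double-KO, 318 to 422 in Mll2-KO and 537 to 652 in WT at D0. Its part in the Itga1 change was not tested. The calls for Itga1, Itga3, Itgb3 and for Itga5 in double-KO were lost under several alternatives, among them quantile scaling. The Lama5 call was lost in Mll1-KO with quantile scaling and in Mll2-KO without WT replicate 2. Itgam and Itga10 did not pass the test in any mutant against WT on either day. Itgb8 did not pass it in any mutant at D4 and was not tested at D0, and Itgax reached at most 2.94 in any library.

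**Figure D5:**
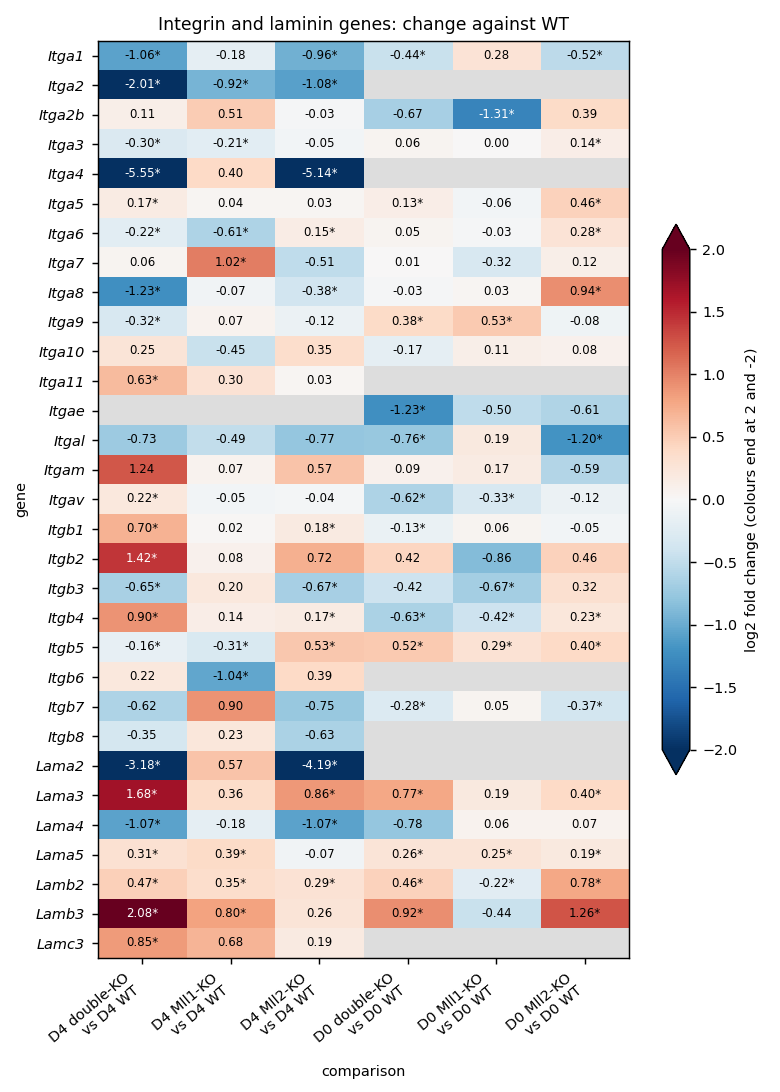
Log2 fold change of each mutant against WT of the same day, for the 31 genes tested on at least 1 day, with blue lower and red higher in the mutant, grey not tested, and a star at an adjusted p below 0.05. Itga4 and Lama2 are at -5.55 and -3.18 in D4 double-KO and at -5.14 and -4.19 in D4 Mll2-KO, and Lamb3 is at 2.08 in D4 double-KO.

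The mutant effects were compared between days as the effect at D4 minus that at D0, with all 24 libraries in the fit. The double-KO effect differed for 14 of 31 genes, 6 higher and 8 lower, where 39.4% of all genes were called, 20.3% higher and 19.2% lower. The Mll1-KO effect differed for 11, 6 higher and 5 lower, where 34% of all genes were called, 15% higher and 19% lower. With either other scaling the split was 10 higher and 4 lower. Over all genes it was 2169 higher and 2376 lower with quantile scaling, and 3294 higher and 1793 lower with column totals. The Mll2-KO effect differed for 10, 1 higher and 9 lower, where 36.3% of all genes were called, 19.3% higher and 17% lower. For Itgb4 the double-KO effect was lower than WT at D0 and higher at D4 (1.52, SE 0.11, adjusted p = 7.6e-12). Itgb1 (0.83, SE 0.07) and Itgav (0.83, SE 0.11) had the same order of days in double-KO, and Itgb5 the reverse (-0.68, SE 0.06). Lamb2 had 0.57, SE 0.08 in the Mll1-KO effect and -0.48, SE 0.08 in the Mll2-KO effect. For Itga4 the value was -5.66, SE 0.77 in double-KO and -5.42, SE 0.77 in Mll2-KO, which rest on 1 and 3 reads at D4. Itga2, Itga4, Itga11 and Lama2 did not reach the minimum at D0, so the D0 term of their values rests on counts near the floor.

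Other genes of the same machinery were counted from lists. In D4 WT against D0 WT, 16 rose and 2 fell of 19 matrix ligands of integrins, 19 rose and 5 fell of 25 adaptor and signalling genes, and 9 rose and 1 fell of 14 laminin receptors and partners other than integrins, with medians of 1.48, 0.66 and 1.06. Of all genes tested in that comparison 43% were higher and 39.9% lower. Among 19 matrix ligands of integrins tested at D4, 10 rose and 4 fell in double-KO (median 0.17, all genes 0.03), 5 rose and 9 fell in Mll1-KO (median -0.19) and 10 rose and 5 fell in Mll2-KO (median 0.28). Of all genes tested at D4, 27.6% were higher and 23.3% lower in double-KO, 16.5% and 19.2% in Mll1-KO, and 25.4% and 20.3% in Mll2-KO. Lama1, a laminin alpha chain of the early embryo, averaged 10116 ± 613 in Mll1-KO and 37713 ± 941 in Mll2-KO, against 21637 ± 535 in WT at D4 (-1.10, SE 0.04 in Mll1-KO and 0.80, SE 0.04 in Mll2-KO). Vcam1, a ligand of the Itga4 receptor, was at 24.6 to 49.1 in double-KO and 29.5 to 44.1 in Mll2-KO, against 26.4 to 41.1 in WT at D4. Among 17 ligands tested at D0, 4 rose and 8 fell in double-KO (median -0.16), 3 rose and 12 fell in Mll1-KO (median -0.34) and 8 rose and 2 fell in Mll2-KO (median 0.19). Of all genes tested at D0, 26.6% were higher and 27.1% lower in double-KO, 21.3% and 18.7% in Mll1-KO, and 22.8% and 24.3% in Mll2-KO. The basement membrane collagen Col4a1 averaged 810.4 ± 48.8 in double-KO and 1087 ± 114 in Mll1-KO, against 8386 ± 136 in WT at D0 (-3.37, SE 0.06 in double-KO and -2.95, SE 0.06 in Mll1-KO). The sum of extraembryonic endoderm markers was 812 to 874 in double-KO, 719 to 766 in Mll1-KO and 6486 to 7080.3 in WT at D0, where 10 of 10 fell in each mutant, and its part was not tested.

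Among 24 integrin adaptor and signalling genes tested at D4, 13 rose and 1 fell in double-KO (median 0.17), 7 rose and 4 fell in Mll1-KO (median 0.06) and 7 rose and 6 fell in Mll2-KO (median 0.01), beside 27.6% higher and 23.3% lower of all genes in double-KO, 16.5% and 19.2% in Mll1-KO, and 25.4% and 20.3% in Mll2-KO. The sum of fibroblast markers was 15294 to 16083 in double-KO and 6639 to 7262 in WT at D4, and its part was not tested. The scaffold Bcar1 averaged 3959 ± 115 in double-KO, against 2643 ± 111 in WT (0.58, SE 0.05). The actin linker Vcl averaged 7906 ± 60.2 in double-KO, against 5668 ± 304 in WT (0.48, SE 0.05), and Fermt1, a kindlin that activates integrins, was the fall (-0.45, SE 0.14). In Mll2-KO the talin Tln2 averaged 2079 ± 59.7, against 1306 ± 48.5 in WT (0.67, SE 0.05). Among 25 such genes tested at D0, 13 rose and 7 fell in double-KO, 6 rose and 6 fell in Mll1-KO and 8 rose and 6 fell in Mll2-KO, beside 26.6% higher and 27.1% lower of all genes in double-KO, 21.3% and 18.7% in Mll1-KO, and 22.8% and 24.3% in Mll2-KO. Among 14 laminin receptors and partners other than integrins, 6 rose and 5 fell in double-KO, 5 rose and 1 fell in Mll1-KO and 2 rose and 7 fell in Mll2-KO at D4, beside the shares of all genes at D4 just given. The sarcoglycan Sgce averaged 546 ± 12.2 in double-KO and 417 ± 40.2 in Mll2-KO, against 890.0 ± 54.4 in WT (-0.70, SE 0.07 in double-KO and -1.09, SE 0.07 in Mll2-KO). Among the same 14 genes at D0, 3 rose and 8 fell in double-KO, 3 rose and 5 fell in Mll1-KO and 2 rose and 4 fell in Mll2-KO, beside the D0 shares just given.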

How the data were processed

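Per the labels' protocols, polyA RNA was made into libraries with a TruSeq stranded mRNA kit. STAR 2.7.10a, RSEM 1.3.1 and DESeq2 1.34.0, besides Trim Galore 3.4, SAMtools 1.13 and FastQC, are named in the submitters' processing notes, as is the mm10 build; the roles of the tools, the annotation and the strand setting of the counting are not given in the sources used here. The deposited signal is a normalized count: multiplied by 1 size factor per library, every value came out whole at a tolerance of 1e-06, so whole reads were recovered. Since RSEM estimates counts, these may be rounded estimates. All 24 columns were matched to samples, and 0 columns were left without one. The names of the D0 WT columns hold a letter of unknown meaning, and no other column of that day was WT.

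Differences were tested on log2(normalized count + 1) by limma 3.58.1 (R 4.3.3), with a trended variance and Benjamini-Hochberg adjustment over all genes tested. Each day was fitted on its own 12 libraries (14303 genes at D4 and 13984 at D0), and comparisons across days on all 24 (15114 genes). Each result was recomputed with a pseudocount of 0.5 or 5, without the filter or with a minimum of 50, after quantile scaling or scaling to column totals, with a replicate block, with more or fewer libraries in the fit, without each library in turn, and with edgeR 4.0.16 and DESeq2 1.42.0 on the recovered reads. The code was tested on simulated data. Same-numbered libraries did not deviate together: over 84 pairs the median correlation of deviations was 0.003, at most 0.0768. Replicates of a group differed by more than counting noise in all 24 pairs, so none was counted as a duplicate.

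The 32 genes and the lists were chosen with earlier results of these data known. A gene is given library by library where it is called against WT or between WT days with a log2 change of 1 or more and a mean of 50 or more in whichever group was higher, and Itgb1, Itga6, Itga5 and Itgav always; 18 genes qualified. For each list and comparison, no more than 2 rises and 2 falls were eligible to be named. Itga2, Itga2b, Itgb4, Itgb5, Lama5 and Vcam1, and further groups of the qualifying genes, were added after their values were seen. Gene positions are from GENCODE vM21 (GRCm38) and promoters from RefSeq (GRCm38.p6).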

Additional observations from a re-analysis of the deposited data

Results flagged for a closer look

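In each result here a mutant effect differed by test between days or with the state of the other gene (limma, adjusted p below 0.05), and values are differences of log2 fold changes. At D0, Itga2, Itga4, Itga11 and Lama2 did not reach the minimum for testing. The D0 term in their values between days rests on counts near the floor, so no D0 effect was measured for them. The effect of losing MLL2 with MLL1 absent, minus that with MLL1 present, was 0.24 for Itga6, -0.77 for Itga8, 0.31 for Itgav, 0.50 for Itgb1, -0.27 for Itga9, 0.59 for Itgb4, -0.38 for Itgb5, 0.87 for Itgb6 and 1.01 for Lamb3 at D4, and -0.27 for Itga5, -0.21 for Itga6 and -0.44 for Itgb4 at D0. Of these, Itga6 at D0 and Itga9, Itgav and Itgb6 at D4 lost their call under several alternatives, including no filter, Itgb4 at D0 lost it on leaving out any 1 of 6 libraries (Mll1-KO replicate 2, Mll2-KO replicate 1 or 2, double-KO replicate 1, WT replicate 1 or 2), and Itga8 and Lamb3 lost it with all 24 libraries in the fit.

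The double-KO effect at D4 minus D0 was -0.35 for Itga3, -5.66 for Itga4, -0.27 for Itga6, -1.20 for Itga8, 0.83 for Itgav, 0.83 for Itgb1, -1.98 for Lama2, 0.90 for Lama3 and 1.15 for Lamb3. It was -2.61 for Itga2, -0.70 for Itga9, 1.74 for Itga11, 1.52 for Itgb4 and -0.69 for Itgb5. The Itga2 value was -5.14 with edgeR and -4.72 with DESeq2, and the Itga11 value was 0.99 with a pseudocount of 5, its call being lost with quantile scaling, DESeq2, and without D0 double-KO replicate 1, D0 WT replicate 1, D4 double-KO replicate 3 or D4 WT replicate 1. The Lama2 call was lost with a pseudocount of 0.5 (adjusted p = 0.12), edgeR (0.48), DESeq2 (0.45) and without D0 double-KO replicate 1 (0.063), and the Itga4 value was -3.68 with a pseudocount of 5.

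The Mll1-KO effect at D4 minus D0 was -0.21 for Itga3, -0.58 for Itga6, 1.34 for Itga7, 0.88 for Itgb3, 0.57 for Lamb2, 1.24 for Lamb3, -2.29 for Itga2, 1.82 for Itga2b, -0.45 for Itga9, 0.55 for Itgb4 and -0.60 for Itgb5. The Itga2 value was -1.29 with a pseudocount of 5, -5.10 with edgeR and -4.82 with DESeq2, and its call was lost without D0 Mll1-KO replicate 2 or 3 or D4 Mll1-KO replicate 3, and the Itga3 call was lost with quantile scaling and with column totals. The Mll2-KO effect at D4 minus D0 was -0.19 for Itga3, -5.42 for Itga4, -0.42 for Itga5, -1.32 for Itga8, 0.23 for Itgb1, -0.99 for Itgb3, -3.91 for Lama2, -0.27 for Lama5, -0.48 for Lamb2 and -0.998 for Lamb3. Here the Itga3 call was lost without D0 Mll2-KO replicate 1 or D0 WT replicate 2 (and the value was -0.30 with quantile scaling), the Itgb1 call with either other scaling and without D0 Mll2-KO replicate 2 or D4 Mll2-KO replicate 3, and the Lamb3 call without D0 Mll2-KO replicate 3.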

How the results depend on the processing

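No called result for a gene turned its direction. Of the 205 called gene results, recomputed in 3541 cases in all, 3311 cases kept direction and call and 230 lost the call, and 150 results never lost it. A gene removed by a filter had no case in that setting, and this was not counted as a lost call. Counts of genes called moved by over 1.5 times for D0 double-KO against WT with quantile scaling (9, against 14) and for the difference of differences at D4 with all 24 libraries in the fit (4, against 9), and the cause was not tested. Over all genes, D0 double-KO against WT had 7477 calls with quantile scaling, against 7513. Leaving out 1 library moved the count as far for D0 Mll2-KO against WT (8 without WT replicate 2, against 13) and for the difference of differences at D0 (1, against 3). The shares of all genes called without a library or with all 24 libraries in the fit are not given here. Leaving out each library in turn, the count was 19 to 22 for D4 double-KO, 8 to 10 for D4 Mll1-KO, 12 to 14 for D4 Mll2-KO, 10 to 12 for D0 double-KO, 7 to 8 for D0 Mll1-KO and 8 to 14 for D0 Mll2-KO, each against WT, and 6 to 9 at D4 and 1 to 3 at D0 for the difference of differences. It was 20 to 22 for D4 double-KO against Mll1-KO, 11 to 16 against Mll2-KO, 8 to 11 and 9 to 11 for the same pairs at D0, 24 to 25 between WT days, and 12 to 15, 10 to 13 and 9 to 11 for the double-KO, Mll1-KO and Mll2-KO effects between days. With a replicate block, added although the numbers did not pair the libraries, the count was 12 (against 13) for D4 Mll2-KO, 16 (against 15) for D4 double-KO against Mll2-KO, 8 (against 9) for the D4 difference of differences, 26 (against 24) between WT days and 11 (against 10) for the Mll2-KO effect between days, and it was the same elsewhere. Over all genes called, scaling to column totals changed the split: the share of calls that were higher was 41.3% (against 54.2%) for D4 double-KO, 60.3% (against 46.2%) for D4 Mll1-KO, 34.4% (against 55.6%) for D4 Mll2-KO and 38.9% (against 53.2%) for D0 Mll1-KO, each set against WT of its day. It was 36.1% (against 56.7%) for D4 double-KO against Mll1-KO, 38.1% (against 49%) for D0 double-KO against Mll2-KO, and 64.8% (against 44%) and 37.5% (against 53.2%) for the Mll1-KO and Mll2-KO effects between days. Calls on genes near 0 reads, Itga4, Lama2 and Itga2, have sizes that depend on the pseudocount, and depth limits them.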
